A study of Mus musculus with 18 samples.

Results

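The genes described here are those encoded in the mitochondrial genome, followed through RNA-seq of the thalamus of wild-type mice. They were taken as every row of the deposited count table whose symbol is that of a mitochondrial protein gene (CYTB, ND1 to ND6, ND4L, COX1 to COX3, ATP6, ATP8), of a mitochondrial transfer RNA (Trn and a letter), or begins with mt-. The rule used names alone and no measured value, and it found 37 of 50559 genes: 13 protein-coding genes, 2 ribosomal RNAs and 22 transfer RNAs. Of these, 19 passed the filter on low counts and were tested: the 13 protein-coding genes, both ribosomal RNAs, TrnP, TrnC, TrnE and TrnN. The other 18 members are transfer RNAs and were left untested.

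There were 18 libraries in 3 groups of 6. The intervene group received Coll IV and remodelin, an inhibitor of the acetyltransferase NAT10. The model group received Coll IV alone, and the control group received saline. All mice were wild type, and the labels state neither age nor sex nor the time of sampling, and do not spell out Coll IV. RNA was selected by its poly(A) tail with oligo(dT). The labels number the samples 1 to 6 within each group but do not say that each is a separate animal, so each p-value reflects the spread among these samples, which may be technical. In this bulk tissue, fewer cells of a type and less RNA per cell cannot be told apart.

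Animal mitochondrial DNA is a small circle that is transcribed from both strands into long precursor RNAs. These are cut, mostly at the transfer RNAs that lie between the other genes, into messenger, ribosomal and transfer RNAs. The messenger RNAs encode core subunits of respiratory complexes I, III, IV and V, and the ribosomal and transfer RNAs serve translation inside the organelle. All other subunits, and all proteins that copy, transcribe and process this genome, are encoded in the nucleus. Brain tissue depends heavily on oxidative phosphorylation. Most, but not all, messenger RNAs of mitochondrial origin carry short poly(A) tails, so oligo(dT) selection can retain them.

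Libraries held 28481225 to 118461420 counts; control replicate 1 was the deepest. In model and control, replicates 4 to 6 stood apart from replicates 1 to 3 in markers of brain regions, whereas in intervene the sets overlapped; the labels do not say what the numbers stand for. Of the 12 thalamic neuron markers listed for this check, all 12 were tested, and 1 of them, Gbx2, was at 0 in 1 library. Their summed level was 465 to 677 CPM in intervene replicates 4 to 6, 175 to 291 CPM in model replicates 4 to 6 and 123 to 137 CPM in control replicates 4 to 6. In replicates 1 to 3 it was 634 to 711 CPM in intervene, 495 to 925 CPM in model and 770 to 940 CPM in control libraries. The 11 cortex and hippocampus markers went the other way in control, with 2515 to 2699 CPM in replicates 4 to 6 and 246 to 1069 CPM in replicates 1 to 3. CPM are counts scaled to a common library total, after TMM normalization. Because of this split, made after the data had been seen, each comparison is given over all 18 libraries and also within each set of 3.

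The sequences that bear on these measurements come from GENCODE M21 on the GRCm38 build, whereas the deposited counts refer to GRCm39. On GRCm38, a stretch of chromosome 1 from 24611535 to 24616197 holds nuclear copies of 7 neighbouring mitochondrial genes. ND4L, a small membrane subunit of complex I, shows how close such a copy can be. Its mitochondrial gene, chrM:9877-10173 on the plus strand, is printed in full, with capitals for the 3 bases that lie beyond the copy.
ND4L: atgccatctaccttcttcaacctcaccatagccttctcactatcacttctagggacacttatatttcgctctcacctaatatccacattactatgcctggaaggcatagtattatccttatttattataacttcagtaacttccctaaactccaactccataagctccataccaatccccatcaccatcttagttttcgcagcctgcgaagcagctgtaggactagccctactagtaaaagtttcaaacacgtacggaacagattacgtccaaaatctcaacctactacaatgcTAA
The lower-case 294 bases are the same, base for base, as the whole of Gm10222 on chromosome 1, so no read that lies inside them can be assigned to either copy by its sequence. The copy of ND3, another complex I subunit, differs by a single base in 345. The first 60 bases of ND3 (chrM:9459-9518, plus strand) and of its copy Gm28438 (chr1:24613060-24613119, minus strand) hold that base, in capitals.
ND3: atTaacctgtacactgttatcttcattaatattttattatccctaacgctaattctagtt
Gm28438: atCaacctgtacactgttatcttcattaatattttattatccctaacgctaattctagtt
The difference is T3C, counted from 1 at the gene's 5′ end.

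Identity to a nuclear transcript divided the protein-coding genes sharply. The share of 100-base windows that occur unchanged in an annotated nuclear transcript was 99.9% for COX3, 99.5% each for COX2 and ATP6, 98.5% for ND4L and 97.6% for ND3. It was 60.8% for ND4, 30.8% for COX1 and 3.19% for ND2. It was 0 for ND1, ND5, ND6, CYTB, ATP8 and both ribosomal RNAs. Nuclear sequence outside annotated transcripts was not searched, so a share of 0 does not show that a gene has no close nuclear copy. Of the 7 chromosome 1 copies, Gm10925 (a copy of ATP6) and Gm10222 have rows of their own in the count table. ATP6 had 0.491 to 3.38 counts for each count of Gm10925, and ND4L had 0.407 to 1.90 counts for each count of Gm10222, over the 18 libraries. Values of COX2, COX3, ATP6, ND3 and ND4L therefore depend on how shared reads were divided and are uncertain, and to a lesser extent so are those of ND4 and COX1.

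Mitochondrially encoded genes took 7.39 to 17.7% of all counts in a library. The share averaged 14.4 ± 2.51% in the intervene group, 12.4 ± 3.09% in the model group and 10.8 ± 2.68% in the control group (SD, n = 6 each), and the groups overlapped. By library, intervene replicates 4 to 6 had 12.28, 15.63 and 17.68%, and intervene replicates 1 to 3 had 16.46, 11.54 and 12.90%. Model replicates 4 to 6 had 10.27, 9.44 and 12.04%, and model replicates 1 to 3 had 10.51, 17.59 and 14.32%. Control replicates 4 to 6 had 7.39, 7.70 and 11.17%, and control replicates 1 to 3 had 12.43, 12.07 and 14.00%. Within replicates 4 to 6 the lowest intervene library was above the highest model and control library. Within replicates 1 to 3 the 3 groups overlapped, with means of 13.6 ± 2.54% in intervene, 14.1 ± 3.54% in model and 12.8 ± 1.03% in control libraries (SD, n = 3 each).

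**Figure D1:**
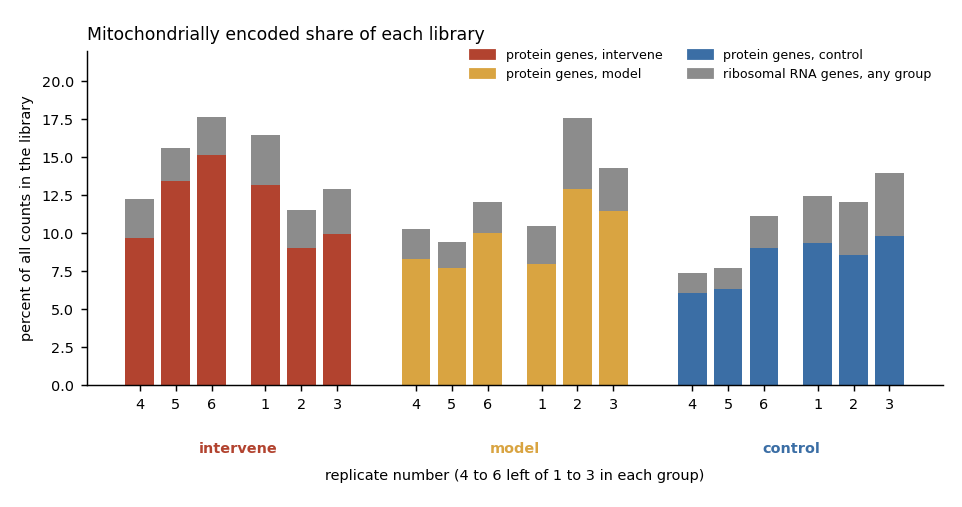
Percent of all counts in each library (vertical axis) taken by mitochondrial protein genes (coloured part of each bar) and ribosomal RNA genes (grey part), with 1 bar per library and replicates 4 to 6 left of 1 to 3 in each group. Whole bars of intervene replicates 4 to 6 reach 12.28 to 17.68%, above those of control replicates 4 to 6 at 7.39 to 11.17%, and the grey parts are tallest in model replicate 2 and control replicate 3.

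The protein-coding genes and the ribosomal RNAs did not divide the groups alike. Protein-coding genes took 11.7 ± 2.49% of all counts in intervene, 9.74 ± 2.11% in model and 8.21 ± 1.59% in control libraries (SD, n = 6 each). Ribosomal RNAs took 2.67 ± 0.371% in intervene, 2.61 ± 1.10% in model and 2.57 ± 1.19% in control libraries. The ribosomal share followed the replicate sets: in control it averaged 1.57% in replicates 4 to 6 and 3.58% in replicates 1 to 3, and in model 1.88% and 3.35%. In intervene the averages were closer, at 2.44% in replicates 4 to 6 and 2.90% in replicates 1 to 3.

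Levels were compared between genes on the deposited FPKM, which divide counts by gene length and library total. The lengths behind the deposited FPKM are 2 times the GENCODE length for 37 of 37 members, and near or above that for most nuclear genes checked, so these FPKM rank genes but their absolute size is not comparable with other data sets. The order runs over a wide range. It is the order in poly(A)-selected libraries, and how far the selection kept each RNA, the ribosomal RNAs included, was not tested. COX1, the catalytic subunit of complex IV, was highest at 10791 ± 2225 FPKM (SD over 18 libraries), with a lowest library at 7283 and a highest at 15649 FPKM. ND1, a membrane subunit of complex I, stood at 8441 ± 2324 FPKM, and CYTB, the cytochrome b subunit of complex III, at 8400 ± 2463 FPKM. COX1 was above ND1 in 18 of 18 libraries, whereas ND1 was above CYTB in 12 of 18, so those neighbours were not ordered beyond their spread. Next came mt-Rnr1, the RNA of the small ribosomal subunit, at 6244 ± 1945 FPKM, ND2 at 4878 ± 1685 FPKM, and mt-Rnr2, the RNA of the large ribosomal subunit, at 4508 ± 1686 FPKM. ND2 was above mt-Rnr2 in 11 of 18 libraries, again within their spread. ND4 followed at 3556 ± 955 FPKM, and then came ND6 at 2643 ± 741 FPKM and ND5 at 1860 ± 481 FPKM, in that order in 18 of 18 libraries. ND6 is the single protein gene of this set on the minus strand. The labels do not say whether counting used strand, so reads of ND6 and of RNA antisense to it cannot be told apart. This holds for its level here and for its calls below.

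A gap of about an order of magnitude separated these genes from the remaining 6 protein-coding genes. COX2, a complex IV subunit that takes electrons from cytochrome c, stood at 205 ± 122 FPKM, and COX3, another complex IV subunit, at 148 ± 76.5 FPKM. ATP6, a proton-channel subunit of complex V, stood at 138 ± 75.1 FPKM, and ND3 at 58.5 ± 24.9 FPKM. ATP8, a small subunit of complex V, had 18.8 ± 15.6 FPKM, and ND4L had 17.9 ± 11.2 FPKM (SD over 18 libraries for each). COX2 was above COX3, and COX3 above ATP6, in 14 of 18 libraries, and ATP6 was above ND3 in 18. ATP8 was above ND4L in 8 of 18 libraries, so they were not ordered. COX2, ATP8, ATP6, COX3, ND3 and ND4L are consecutive protein genes on the map, from 7013 to 10173 on the GRCm38 mitochondrial sequence. COX1 on one side and ND4 on the other were both among the high genes. The low genes and the genes with near-identical annotated nuclear copies are mostly the same. ATP8 was the exception: it was low and had no 100-base window in an annotated nuclear transcript. On chromosome 1, however, the copies of its neighbours ATP6 (Gm10925, ending at 24614651) and COX2 (Gm28661, starting at 24614885) leave a stretch between them. Whether that stretch holds a copy of ATP8 was not tested, which limits its level here and its call below. ATP8 overlaps ATP6 by coordinates (7766 to 7969 against 7927 to 8607), and the labels do not say how reads in an overlap were counted. The part of read assignment in these low values was not tested.

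**Figure D2:**
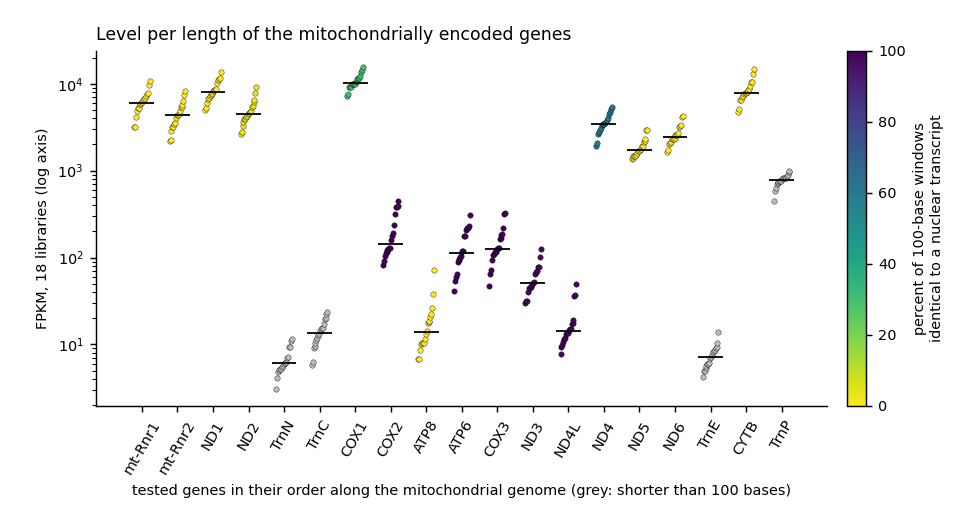
Deposited FPKM (log axis) of the 19 tested genes in their order along the mitochondrial genome, with 1 point per library, a line at the median, and colour for the percent of 100-base windows found unchanged in a nuclear transcript (grey for genes shorter than 100 bases). The run from COX2 to ND4L lies below its neighbours COX1 and ND4 in all 18 libraries, and all of it but ATP8 is dark.

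Among the protein-coding and ribosomal RNA genes, the low ones also varied most between libraries. As a share of the mitochondrial counts of its library, ND4 had a coefficient of variation of 5.49% over 18 libraries, ND1 6.19%, ND6 10.0%, COX1 10.1%, CYTB 10.2%, ND2 12.7% and ND5 13.7%. mt-Rnr1 was at 17.95% and mt-Rnr2 at 25.4%. ND3, COX3, COX2, ND4L, ATP6 and ATP8 ranged from 38.8% for ND3 to 59.0% for ATP8. Of the tested transfer RNAs, TrnC was at 54.0% and TrnN at 40.2%. COX2 had 213, 339 and 176 CPM in intervene replicates 4 to 6 and 553, 171 and 159 CPM in replicates 1 to 3. In model libraries it had 114, 165 and 158 CPM in replicates 4 to 6 and 166, 633 and 517 CPM in replicates 1 to 3, and in control libraries 123, 139 and 265 CPM in replicates 4 to 6 and 511, 408 and 245 CPM in replicates 1 to 3. The highest COX2 libraries were thus intervene replicate 1, model replicates 2 and 3, and control replicates 1 and 2. ND4L had 7.98, 6.61 and 23.9 CPM in intervene replicates 4 to 6 and 30.6, 8.51 and 7.58 CPM in intervene replicates 1 to 3, so that 2 of the 6 intervene libraries stood far above the other 4.

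**Figure D3:**
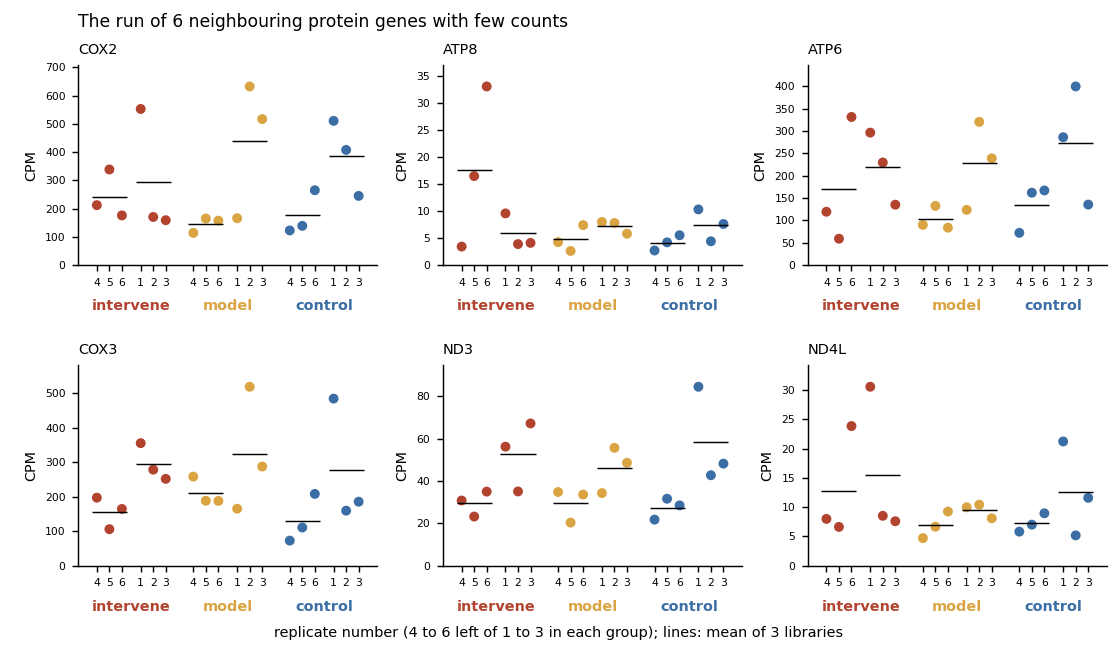
CPM (linear axes, 1 panel per gene) of COX2, ATP8, ATP6, COX3, ND3 and ND4L in each library, for intervene, model and control, with lines at the means of 3 libraries. Single libraries stand high in most panels, such as COX3 at 519 CPM in model replicate 2 and ATP8 at 33.1 CPM in intervene replicate 6.

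Transfer RNA genes were counted unevenly. TrnP, the transfer RNA for proline, held 68232 counts over the 18 libraries, 1847 to 11374 per library, and 92.2 to 96.9% of all transfer RNA counts of a library. TrnC (cysteine) held 1244 counts, TrnE (glutamate) 715 and TrnN (asparagine) 636. Of the 22 transfer RNAs, 16 had fewer than 100 counts over all libraries, and 5 were counted in 18 of 18. All transfer RNAs together took 0.070 to 0.109% of mitochondrial counts. Mature transfer RNAs are shorter than the fragments of about 300 bases selected for these libraries, and carry no poly(A) tail. The genes for TrnP (chrM:15356-15422) and TrnC (chrM:5192-5257), which the comparisons below return to, are shown 5′ to 3′ on their own minus strand, with the anticodon in capitals.
TrnP: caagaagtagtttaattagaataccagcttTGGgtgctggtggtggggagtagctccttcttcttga
TrnC: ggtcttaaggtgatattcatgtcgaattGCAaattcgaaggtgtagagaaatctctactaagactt
All 4 transfer RNAs that passed the filter lie on the minus strand. The 8 minus-strand transfer RNAs held 40 to 68232 counts each (median 362), and the 14 plus-strand transfer RNAs held 1 to 146 counts each (median 9). The labels do not say whether counting used strand, so reads of a minus-strand gene and of RNA antisense to it from the other strand cannot be told apart.

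Intervene was first compared with model and with control over all 18 libraries, by edgeR's quasi-likelihood test with Benjamini-Hochberg adjustment over 18452 genes and a threshold of 0.05. The question is whether Coll IV moved the genes, and whether adding remodelin did. None of the 19 tested members was called in intervene against model, intervene against control or model against control, beside 0% of all genes in each. At an unadjusted p under 0.05 there were 531 genes, 1551 genes and 310 genes in those comparisons, and DESeq2 called 2, 73 and 2 genes, of which none was a member. In intervene against control the members' lowest adjusted p was 0.393, for ND6 (log2 fold change 0.66, SE 0.20) and TrnC (−0.81, SE 0.24). CYTB had 0.65 (SE 0.22) and COX1 0.49 (SE 0.17), with adjusted p of 0.486 and 0.488. The median log2 fold change of the 19 was 0.33, beside 0.00 over all genes. In all 3 comparisons the 6 libraries of one group overlapped those of the other for each of the 19 genes. Of all genes, the share without overlap was 0.152% above and 0.0596% below in intervene against model, 0.369% and 0.119% in intervene against control, and 0.0488% and 0.0813% in model against control.

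Within replicates 4 to 6, mitochondrially encoded genes differed between intervene and control. CYTB, ND1, ND2, ND4, ND5, ND6, ATP8 and mt-Rnr1 were higher in intervene and TrnC was lower, which is 8 higher and 1 lower of 19 tested, beside 14.7% of all genes called higher and 11.2% called lower (25.9% in either direction). The members' median log2 fold change was 0.67, and 16 of 19 were positive. With intervene replicates 5 and 6 left out, an alternative added after the data had been seen, 0 of the 19 were called, while 1052 genes of all were called higher and 513 lower. That fit leaves 1 intervene library, assumed to vary like the others, so a lost call there does not by itself show a smaller difference; the fold changes without them are given beside each gene.

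Of the complex I subunits, ND1, ND2, ND4, ND5 and ND6 were called. ND2 had 9434, 17125 and 21179 CPM in intervene replicates 4 to 6, against 5398, 5744 and 8413 CPM in control replicates 4 to 6 (log2 fold change 1.29, SE 0.30, adjusted p = 0.0060 by edgeR). All 3 intervene libraries were above all 3 control libraries, and intervene replicate 4 lay nearest to them. ND4 had 9428, 14794 and 16747 CPM in intervene, against 5163, 5646 and 8623 CPM in control (1.08, SE 0.24, edgeR adjusted p = 0.0049), with 60.8% of its windows shared with nuclear transcripts. ND1 had 15379, 23498 and 28982 CPM in intervene, against 9432, 9873 and 14231 CPM in control (1.02, SE 0.26, edgeR adjusted p = 0.0108). Neither gene's groups overlapped, and control replicate 6 was the highest control library for both. ND6 (minus strand) had 2612, 4506 and 4986 CPM in intervene, against 1686, 1784 and 2524 CPM in control (1.01, SE 0.24, edgeR adjusted p = 0.0064), and ND5 had log2 0.89 (SE 0.23, edgeR adjusted p = 0.0117). ND3 and ND4L were not called, at 0.12 (SE 0.31) and 0.82 (SE 0.62). Without intervene replicates 5 and 6 the log2 fold changes were 0.51 for ND2, 0.52 for ND4, 0.44 for ND1, 0.37 for ND6 and 0.33 for ND5, none of them called. ND1 and ND5 were also not called without control replicate 4, control replicate 5 or intervene replicate 6.

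CYTB, the single complex III subunit encoded here, had 18263, 30857 and 37280 CPM in intervene replicates 4 to 6, against 10699.7, 11484 and 18222 CPM in control replicates 4 to 6. The log2 fold change was 1.10 (SE 0.27, edgeR adjusted p = 0.0086). The groups did not overlap, but intervene replicate 4 lay only just above control replicate 6. Without intervene replicates 5 and 6 the log2 fold change was 0.42.

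None of the complex IV subunits was called. COX1 had 32784, 38123 and 47056 CPM in intervene replicates 4 to 6, against 22026, 22941 and 33539.5 CPM in control replicates 4 to 6 (log2 fold change 0.59, SE 0.23, edgeR adjusted p = 0.0664). Control replicate 6 lay inside the intervene range. COX2 and COX3 stood at 0.46 (SE 0.55) and 0.26 (SE 0.49), with COX3 at 197, 105 and 164 CPM in intervene, against 72.3, 110 and 208 CPM in control. Of the complex V subunits, ATP8 was called and ATP6 was not. ATP8 had 3.45, 16.5 and 33.1 CPM in intervene, against 2.72, 4.23 and 5.55 CPM in control (2.08, SE 0.65, edgeR adjusted p = 0.0292). The ATP8 difference came from intervene replicates 5 and 6, and without them its sign turned, to −0.29. ATP6 had 119, 59.2 and 331 CPM in intervene, against 72.2, 162 and 167 CPM in control, with the control range inside the intervene range.

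Both ribosomal RNAs lay above every control library in every intervene library of replicates 4 to 6, and mt-Rnr1 was called. mt-Rnr1 had 11440.1, 11662 and 14003 CPM in intervene, against 5912, 6023 and 10281 CPM in control (log2 fold change 0.74, SE 0.25, edgeR adjusted p = 0.0371). mt-Rnr2 had 13774, 11621 and 14412 CPM in intervene, against 6739, 7059.7 and 11203 CPM in control (0.67, SE 0.25, edgeR adjusted p = 0.0584), and was not called. The mt-Rnr1 call was lost when intervene replicate 4, 5 or 6 or control replicate 4 or 5 was left out. Without intervene replicates 5 and 6, mt-Rnr1 had a log2 fold change of 0.61, which was not called.

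TrnC was the one member called lower. It had 1.25, 0.872 and 0.855 CPM in intervene replicates 4 to 6, against 2.92, 2.24 and 2.69 CPM in control replicates 4 to 6 (log2 fold change −1.39, SE 0.29, edgeR adjusted p = 0.0025), with no overlap. Without intervene replicates 5 and 6 the log2 fold change was −1.08, which was not called. Model replicates 4 to 6 had 1.90, 1.16 and 1.54 CPM. TrnP stood at 0.50 (SE 0.21, edgeR adjusted p = 0.0909), TrnE at −0.04 and TrnN at −0.50 (SE 0.35), none of them called. CYTB, ND2, ND4, ND6 and TrnC kept their calls when any 1 of the 18 libraries was left out. In all, 8 of the 19 did not overlap with intervene above control, beside 21.6% of all genes, and 1 did not overlap with intervene below, beside 20.7%.

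**Figure D4:**
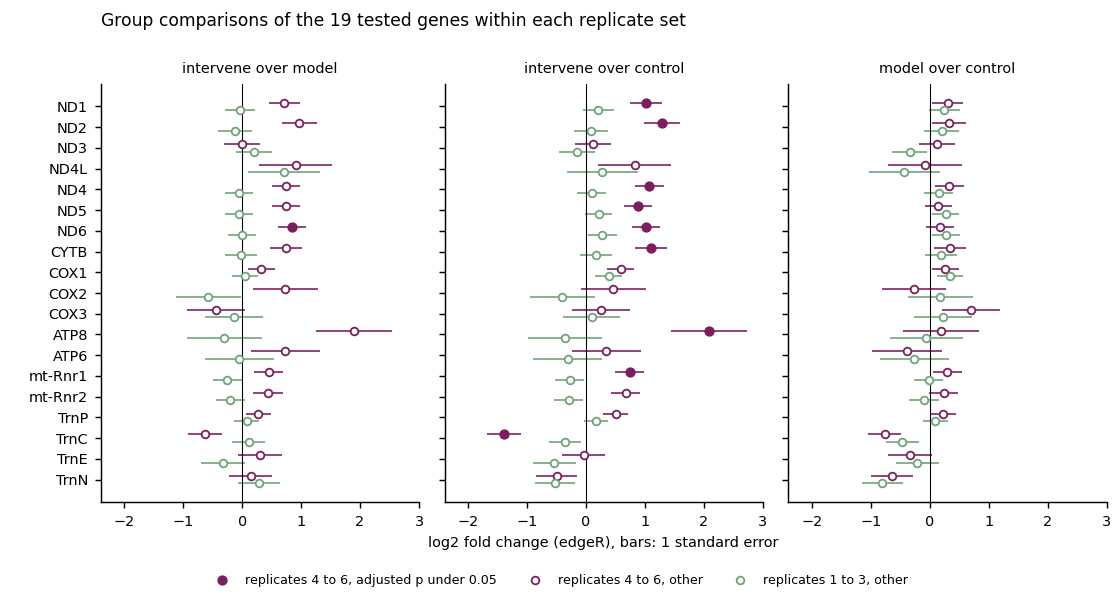
Log2 fold changes with 1 standard error of the 19 tested genes in intervene over model, intervene over control and model over control, within replicates 4 to 6 (purple) and 1 to 3 (green); filled points passed an adjusted p of 0.05. Filled points lie right of 0 for 8 genes and left for TrnC in intervene over control, and for ND6 alone in intervene over model.

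Markers of other cells and regions moved with these differences in replicates 4 to 6. Of the 12 thalamic neuron markers, 10 were called higher in intervene than in control and none lower; Tcf7l2, a transcription factor of thalamic neurons, had a log2 fold change of 3.13 (SE 0.36, edgeR adjusted p = 0.000113). Of the 10 choroid plexus and ependyma markers, 9 were called higher; their summed level was 163, 4126 and 3527 CPM in intervene replicates 4, 5 and 6, against 7.95 to 14.5 CPM in control replicates 4 to 6, with Otx2 at 0 in 2 of the 18 libraries and Kcne2 in 1. Of the 8 oligodendrocyte markers 6 were called higher, with summed levels of 14057 to 15555 CPM in intervene, against 6975 to 7778 CPM in control. Of the 5 erythroid markers 4 were called higher, at 269 to 411 CPM in intervene, against 116 to 159 CPM in control. Other lists gave 5 of 8 astrocyte markers higher and 1 lower, 1 of 8 microglia markers higher and 1 lower, 1 of 11 cortex and hippocampus markers higher and 1 lower, 2 of 8 neuron markers lower and 0 higher, and no call among 5 muscle markers. Summed cortex and hippocampus markers were nevertheless lower without overlap, at 981 to 1783 CPM in intervene, against 2515 to 2699 CPM in control. Summed neuron markers were also lower, at 5937 to 7183 CPM in intervene, against 8383 to 9186 CPM in control. Over all 18 libraries the highest choroid plexus sum, 10426 CPM, was in intervene replicate 2. Its mitochondrial share of 11.54% was the lowest of the intervene group. Intervene replicate 1 had a choroid plexus sum of 618 CPM and a share of 16.46%, and control replicate 3 had 118 CPM and 14.00%. Intervene replicates 5 and 6 had shares of 15.63 and 17.68%. Model replicates 1 to 3 had choroid plexus sums of 3362 to 5669 CPM and a mean share of 14.1%. Model replicates 4 to 6 had 79.7 to 118 CPM and a mean share of 10.6%. The part of all these marker lists in the mitochondrial differences was not tested.

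Intervene against model within replicates 4 to 6, the comparison nearest to the addition of remodelin, gave 1 member: ND6. It had 2612, 4506 and 4986 CPM in intervene, against 2224, 2039 and 2475 CPM in model (log2 fold change 0.85, SE 0.24, edgeR adjusted p = 0.0495). The groups did not overlap, but intervene replicate 4 was near the model range. Whether these reads came from ND6 itself or from RNA antisense to it cannot be told apart. This 1 of 19 called higher stands beside 3.66% of all genes called higher and 2.05% called lower (5.71% in either direction). The call was lost with the replicate number as a block (0 members called), and in 13 of 18 fits that left out 1 library, including those without model replicate 4, 5 or 6 or intervene replicate 5 or 6, and without intervene replicates 5 and 6 together the log2 fold change was 0.20. Without intervene replicate 4 instead, 6 members were called higher. ND2, ND5 and ND4 had 0.97 (SE 0.30), 0.74 (SE 0.23) and 0.74 (SE 0.24), with edgeR adjusted p of 0.0680, 0.0718 and 0.0813. The members' median was 0.72, and 17 of 19 were positive. TrnP, ND6, COX2, mt-Rnr1 and mt-Rnr2 did not overlap, with intervene above model, beside 14.5% of all genes. For TrnP the groups all but touched, with the lowest intervene library at 108.032 CPM and the highest model library at 108.022 CPM. The other 14 members overlapped, and 13.5% of all genes were below without overlap. In the same comparison 7 of 12 thalamic neuron markers, 2 of 8 oligodendrocyte, 2 of 5 erythroid and 1 of 10 choroid plexus and ependyma markers were called higher and none lower. Summed levels did not overlap for oligodendrocyte markers, at 14057 to 15555 CPM in intervene, against 8448 to 11885 CPM in model. Astrocyte markers did not overlap either, at 4813 to 4958 CPM in intervene, against 4259 to 4488 CPM in model. Summed neuron markers and summed microglia markers overlapped. Erythroid markers had 269 to 411 CPM in intervene, against 142 to 185 CPM in model, and choroid plexus and ependyma markers 163 to 4126 CPM in intervene, against 79.7 to 118 CPM in model. Cortex and hippocampus markers were lower, at 981 to 1783 CPM in intervene, against 1808 to 2130 CPM in model. The part of these markers in the ND6 difference was not tested. This comparison and that with control share the intervene libraries.

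Model against control within replicates 4 to 6 gave no member, beside 0% of all genes; 1876 genes had an unadjusted p under 0.05, and DESeq2 called 198 higher and 23 lower. The members' median log2 fold change was 0.19. TrnC was the single member below control in every model library, beside 9.83% of all genes, and was not called.

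Within replicates 1 to 3, none of the members was called in intervene against model, intervene against control or model against control, beside 0% of all genes in each. Unadjusted p under 0.05 was reached by 700, 1579 and 1075 genes; DESeq2 called 1 higher and 0 lower, 30 higher and 14 lower, and 6 higher and 5 lower. Median log2 fold changes of the 19 were −0.05, 0.08 and 0.09. CYTB, for example, had 24902, 16652 and 17561 CPM in intervene replicates 1 to 3, 14102, 24448 and 21448 CPM in model replicates 1 to 3, and 17470, 15460 and 19652 CPM in control replicates 1 to 3. The 3 groups overlapped, with the highest intervene library at replicate 1 and the highest model library at replicate 2.

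Whether the sets differ in their response was tested as a difference of differences. For intervene against control, no member was called, beside 17.9% of all genes (9.54% with a positive and 8.37% with a negative difference). The lowest adjusted p by edgeR was 0.0542, for mt-Rnr1 (difference of log2 fold changes 1.02, SE 0.35), followed by ND2 (1.20, SE 0.42, adjusted p = 0.0568) and ND4 (0.98, SE 0.34, adjusted p = 0.057). CYTB had 0.93 (SE 0.38, edgeR adjusted p = 0.105). With the replicate number as a block 3 members were called with a positive difference, and DESeq2 called 5. For intervene against model no member was called, beside 0.352% of all genes (0.276% positive, 0.0759% negative), with ND2 at 1.08 (SE 0.42, edgeR adjusted p = 0.201). For model against control no member and no gene was called (0%), 2079 genes had an unadjusted p under 0.05, and DESeq2 called 141 higher and 59 lower.

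The replicate sets themselves differed in many genes, 38.2% of all in control and 18.7% in model, and the ribosomal RNAs were among them. Beside those shares, the calls given next are not particular to the mitochondrially encoded genes. In control, mt-Rnr2 was lower in replicates 4 to 6, at 6739, 7059.7 and 11203 CPM, against 16493, 18692 and 24168 CPM in replicates 1 to 3 (log2 fold change −1.25, SE 0.25, edgeR adjusted p = 0.0013). mt-Rnr1 had 5912, 6023 and 10281 CPM in control replicates 4 to 6, against 13359, 13859 and 18730 CPM in control replicates 1 to 3 (−1.05, SE 0.25, edgeR adjusted p = 0.0039). ND3 had 21.7, 31.6 and 28.4 CPM in replicates 4 to 6, against 84.6, 42.7 and 48.2 CPM in replicates 1 to 3 (−1.10, SE 0.31, edgeR adjusted p = 0.0113), a call lost without control replicate 1 or 4. These 3 of 19 called lower stand beside 19.6% of all genes called lower, and none was called higher, beside 18.6% (38.2% in either direction). The groups did not overlap for ND3, ND4, mt-Rnr1 and mt-Rnr2, 4 of 19, beside 26.6% of all genes below without overlap. The members' median was −0.57, and 18 of 19 were negative.

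In model, the same ribosomal RNAs were lower in replicates 4 to 6 than in replicates 1 to 3. mt-Rnr2 had 10241, 8783 and 10391 CPM in model replicates 4 to 6, against 13054, 27069.6 and 15279 CPM in model replicates 1 to 3 (log2 fold change −0.91, SE 0.25, edgeR adjusted p = 0.0207). mt-Rnr1 had −0.73 (SE 0.25, edgeR adjusted p = 0.0488). Model replicate 2 was the highest library for both, and without it mt-Rnr2 had −0.52 and neither was called; the mt-Rnr2 call was also lost without model replicate 4, 5 or 6, and the mt-Rnr1 call in 13 of 18 fits that left out 1 library. The 2 calls of 19 stand beside 9.78% of all genes called lower, and none was called higher, beside 8.91% (18.7% in either direction); COX2, mt-Rnr1 and mt-Rnr2 did not overlap, beside 19.4%. In intervene, TrnC was lower in replicates 4 to 6, at 1.25, 0.872 and 0.855 CPM, against 2.07, 1.97 and 1.52 CPM in replicates 1 to 3 (−0.90, SE 0.29, edgeR adjusted p = 0.0465). It was the 1 member called, beside 7.16% of all genes called lower and 7.76% called higher (14.9% in either direction), and the call was lost in 11 of 18 fits without 1 library. ND3, COX3 and TrnC did not overlap between the intervene sets, beside 15.8% of all genes below. The ribosomal RNAs were not called in intervene, where mt-Rnr2 had 13774, 11621 and 14412 CPM in replicates 4 to 6, against 18916, 13160 and 16241 CPM in replicates 1 to 3. The thalamic neuron markers were called lower in replicates 4 to 6 in 9 of 12 genes in control and 8 of 12 in model, and the oligodendrocyte markers in 6 of 8 in each. The part of these markers in the ribosomal RNA differences was not tested.

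The division of mitochondrial counts between genes in intervene replicates 5 and 6 differed from that in the other libraries in CYTB, ND1, ND2, ND4, ND6 and ribosomal RNA, among others. In these replicates ND1 took 14.3 and 14.7%, ND4 9.02 and 8.47%, and ND6 2.75 and 2.52%. The highest other library had 13.7% for ND1, 8.12% for ND4 and 2.35% for ND6. ND1, the base of the ratios below, was thus itself raised in share. COX1 took 27.2, 23.2 and 23.8% of the mitochondrial counts in intervene replicates 4, 5 and 6, and 29.4, 26.7 and 28.1% in intervene replicates 1, 2 and 3. CYTB took 15.1, 18.8 and 18.9% in intervene replicates 4, 5 and 6, and 14.1 to 15.1% in intervene replicates 1 to 3. ND2 took 7.81, 10.4 and 10.7%, and 7.15 to 7.75%. The shares of CYTB and ND2 in replicates 5 and 6 were thus above those of the other 4 intervene libraries, and that of COX1 was below them, although 22.1 to 24.6% in control replicates 1 to 3 was as low. For each count of ND1 there were 1.62 counts of COX1 in both of these libraries, 2.09 to 2.26 in intervene replicates 1 to 4, 1.96 to 2.45 in model and 1.86 to 2.36 in control libraries. For ND2 there were 0.729 and 0.731 counts in intervene replicates 5 and 6, against 0.572 to 0.663 in the other 16 libraries. Ribosomal RNAs took 14.2 and 14.4% of the mitochondrial counts in intervene replicates 5 and 6, less than in any other library; control replicates 1 to 3 were highest at 24.7 to 29.9%. No test was run on this pattern, since these 2 libraries were picked out for it.

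**Figure D5:**
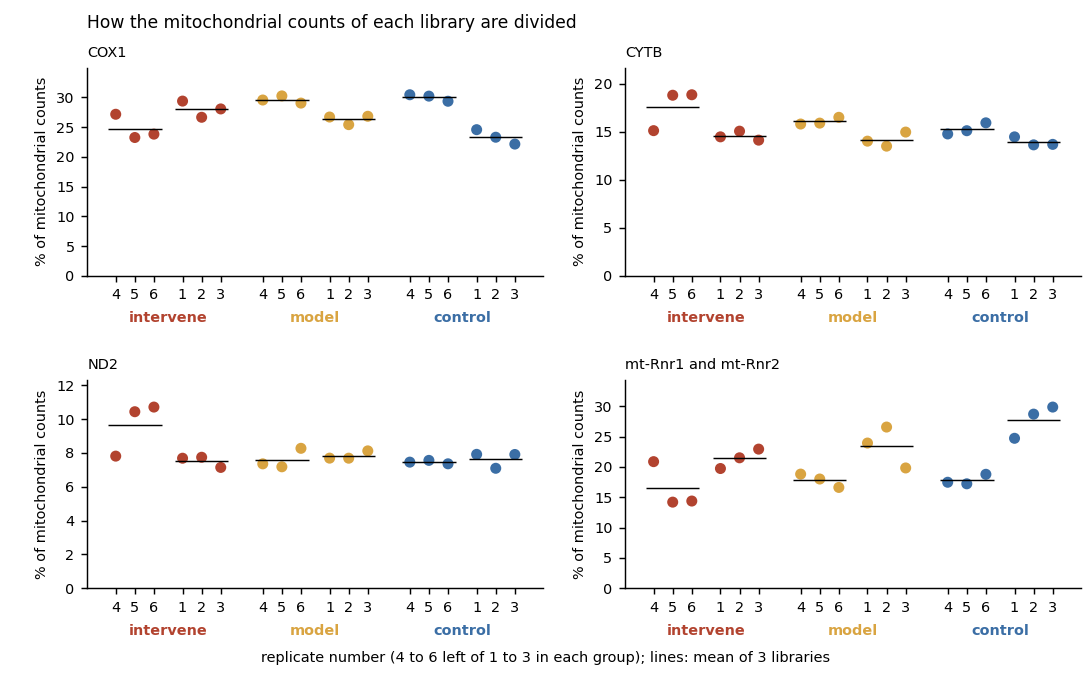
Share of the mitochondrial counts of each library (percent) taken by COX1, CYTB, ND2 and the 2 ribosomal RNAs together, with 1 point per library and lines at the means of 3 libraries. Intervene replicates 5 and 6 have more CYTB and ND2 and less ribosomal RNA than the other intervene libraries, and control replicates 1 to 3 have 24.7 to 29.9% ribosomal RNA.

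Nuclear-encoded genes of the same pathway were taken from lists. Of the 71 nuclear subunits of complexes I, III, IV and V tested, 9 were higher and 1 lower in intervene than in control within replicates 4 to 6, 8 of the 9 in complex I, with a list median of 0.14. These counts stand beside 14.7% of all genes called higher and 11.2% called lower in that comparison, which also holds for the lists named next, and a share of a list near them is not particular to it. The lower one was Ndufv1, a complex I subunit that binds NADH (−0.34, SE 0.10, edgeR adjusted p = 0.0231), named after its value was seen. Ndufa3, an accessory subunit of complex I, had a log2 fold change of 0.55 (SE 0.15, edgeR adjusted p = 0.0125), and Uqcrb, a subunit of complex III, 0.44 (SE 0.11, edgeR adjusted p = 0.0110). None of the 11 nuclear complex IV and 15 complex V subunits was called. In intervene against model within replicates 4 to 6, edgeR called none of the 71, and their median was −0.03. Between the control sets, 29 of the 71 were lower in replicates 4 to 6 and 4 were higher, 21 of the 29 in complex I, beside 19.6% of all genes lower and 18.6% higher. Ndufb7 stood at −0.76 (SE 0.17, edgeR adjusted p = 0.00245) and Ndufa5 at −0.69 (SE 0.16, edgeR adjusted p = 0.00344). In model the sets gave 6 higher and 0 lower, beside 8.91% and 9.78% of all genes, and in intervene 6 higher and 7 lower, beside 7.76% and 7.16%.

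Of the genes that copy mitochondrial DNA, 1 of 12 was higher and 2 were lower in intervene than in control within replicates 4 to 6: Polg, the replicative polymerase, had −0.31 (SE 0.10, edgeR adjusted p = 0.0310) and Exog, a mitochondrial nuclease, −0.38 (SE 0.10, edgeR adjusted p = 0.0135). The higher one, named after its value was seen, was Top1mt, the mitochondrial topoisomerase, at 0.47 (SE 0.12, edgeR adjusted p = 0.00956), and it was also higher than in model, at 0.57 (SE 0.12, edgeR adjusted p = 0.0152). None of the 9 transcription genes was called; Polrmt, the mitochondrial RNA polymerase, had −0.01 (SE 0.10). Tfam, which packages and activates the genome, had −0.11 (SE 0.11), and Lrpprc, which stabilises the messenger RNAs, −0.00 (SE 0.08), neither called. Of 21 RNA processing genes 2 were higher, Rexo2 and Hsd17b10, and 1 was lower, Ptcd2; of 20 RNA modification genes none was higher and 1 was lower, Pus1. These 4 were also named after their values were seen. Nat10, the target of remodelin, had 17.5, 16.8 and 16.1 CPM in intervene replicates 4 to 6, against 18.6, 19.4 and 15.7 CPM in control replicates 4 to 6, which overlapped (−0.09, SE 0.11, edgeR adjusted p = 0.559). The messenger RNA level does not measure its activity.

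Of the synthetases that charge mitochondrial transfer RNAs, 2 of 19 were lower in intervene than in model within replicates 4 to 6, and none was higher. Of all genes, 2.05% were called lower and 3.66% higher in that comparison. Lars2, the leucine enzyme, had 110, 95.9 and 98.3 CPM in intervene replicates 4 to 6, against 404, 255 and 489 CPM in model replicates 4 to 6 (log2 fold change −1.92, SE 0.30, edgeR adjusted p = 0.00395). Control replicates 4 to 6 had 149, 253 and 190 CPM, and intervene against control gave −0.96 (SE 0.29, edgeR adjusted p = 0.0240). The intervene libraries were below all model and control libraries of that set, while in replicates 1 to 3 the groups overlapped, with 333, 211 and 248 CPM in intervene, 222, 257 and 131 CPM in model and 253, 330 and 198 CPM in control libraries. Lars2 is also on the list of genes that can draw reads from ribosomal RNA, and its level may hold such reads; this was not tested. Pars2, the proline enzyme, was lower in intervene than in model (−0.54, SE 0.14, edgeR adjusted p = 0.0350) and than in control (−0.59, SE 0.14, edgeR adjusted p = 0.00619). Against control, Kars, the lysine enzyme, was higher (0.30, SE 0.09, edgeR adjusted p = 0.0185), and was named after its value was seen. Of 14 genes of the mitochondrial stress response, 5 were higher and 0 lower in intervene than in control within replicates 4 to 6, beside 14.7% and 11.2% of all genes. Among them Clpp, a matrix protease, had 0.65 (SE 0.13, edgeR adjusted p = 0.00163) and Hspe1, a matrix chaperone, 0.43 (SE 0.11, edgeR adjusted p = 0.00857). Of 8 biogenesis regulators, Pprc1 was higher (0.50, SE 0.13, edgeR adjusted p = 0.00843), and of 9 mitophagy genes Bnip3 was lower (−0.40, SE 0.09, edgeR adjusted p = 0.00417).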

How the data were processed

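Poly(A)-selected RNA from mouse thalamus was sequenced in 18 libraries. The authors deposited raw counts and FPKM per gene; per the submitters' processing notes HISAT2, featureCounts and GRCm39 were used, with versions not given in the sources used here. Counts were tested with edgeR 4.0.16 (limma 3.58.1, R 4.3.3): quasi-likelihood F test with robust estimation, TMM scaling, filterByExpr (18452 genes kept), Benjamini-Hochberg threshold 0.05. One fit had 3 group means, the other 6 means (group by replicates 1 to 3 or 4 to 6). DESeq2 1.42.0, limma on log2(FPKM + 1) and other settings were alternatives. The test was checked on simulated data.

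The members and lists, with the alternatives, were chosen with earlier results of these data known. All mitochondrial protein and ribosomal RNA genes were named; of transfer RNAs the 3 highest and any called; of each list up to 4 genes of lowest p in the comparison with most calls, plus Nat10, Tfam, Polrmt, Lrpprc and Lars2. Of 270 listed genes, 250 matched by symbol and 16 by an older one. No 2 libraries of a group agreed within sampling noise (smallest chi-square per degree of freedom 11.4). Same-numbered control and model libraries deviated together (correlations 0.18 to 0.63, 6 of 6 above 0.1), which meets the rule used here for pairing; this comes from the data, not the labels. Centred on the means of each replicate set the same pairs gave −0.18 to 0.24, so the agreement is largely that of the sets. Pairs with intervene ranged from −0.14 to 0.38.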

Additional observations from a re-analysis of the deposited data

Results flagged for a closer look

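Each of the tested mitochondrially encoded genes, and the shares of counts, were searched in the 3 groups of 6 libraries for a library separated from the other 5 by a gap above Dixon's 95% critical value. Of 63 such groups 5 had one, where chance gives about 1 in 20. COX3 had 519 CPM in model replicate 2, with the other model libraries at 165 to 287 CPM, and 485 CPM in control replicate 1, with the others at 72.3 to 208 CPM. mt-Rnr2 had 2.71e+04 CPM in model replicate 2, with the other model libraries at 8783 to 15279 CPM. TrnN had 1.39 CPM in intervene replicate 1, with the others at 0.650 to 0.906 CPM, and 0.415 CPM in model replicate 5, with the others at 0.697 to 0.866 CPM; these are low counts.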

How the results depend on the processing

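Low counts limit the transfer RNAs, of which 18 of 22 were not tested, and each set comparison rests on 3 libraries a group. In intervene against model, replicates 4 to 6, the single higher call became 0 with DESeq2 size factors in edgeR, no filter, limma-voom, log2(FPKM + 1), the replicate block or only the 6 libraries compared, and 6 with DESeq2; leaving out 1 library gave 0 to 6. In intervene against control, replicates 4 to 6, the 8 higher and 1 lower calls became 0 and 0 without intervene replicates 5 and 6; leaving out 1 library gave 4 to 11 higher, 4 without control replicate 4, control replicate 5 or intervene replicate 6 and 11 without control replicate 6. ATP8 turned to −0.29 there. The difference between sets of intervene against control gave 3 higher with library totals, 3 with log2(FPKM + 1), 3 with the replicate block, 1 with limma-voom and 5 with DESeq2, and 1 lower with log2(FPKM + 1); leaving out 1 library gave 0 to 5. Between intervene sets the lower call became 2 with library totals, log2(FPKM + 1) or DESeq2, 0 with no filter, limma-voom or without intervene replicates 5 and 6; leaving out 1 library gave 0 to 2 lower and 0 to 5 higher. Between model sets the 2 lower calls became 0 with no filter, 1 with limma-voom and 1 without intervene replicates 5 and 6 (0 to 3 leaving out 1 library), and the 3 between control sets were 2 to 6. The replicate block changed no other member's count of calls; the comparisons of sets admit none. The cause of these changes was not tested. With protein-coding genes alone the shares were 11.7% in intervene, 10.7% in intervene replicates 1 to 3, 8.69% in model replicates 4 to 6 and 9.25% in control replicates 1 to 3. Group shares leaving out 1 library were 13.8 to 15.0% in intervene, 11.3 to 12.9% in model and 10.2 to 11.5% in control. ND4L in intervene against model, replicates 1 to 3, had log2 0.71 (−0.24 to 1.042 leaving out 1 library, and −0.24 without intervene replicate 1). Scaling by library totals in place of TMM moved the median of all genes by −0.068 in intervene against control, replicates 4 to 6, where the split of all calls was 2136 higher and 2449 lower, against 2713 and 2063 with TMM; the members stayed at 8 and 1. In intervene against model it was 401 and 439, against 675 and 378, and between intervene sets 797 and 1594, against 1431 and 1321.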
